A study of Angelica pubescens with 12 samples.

Results

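Roots of Angelica pubescens, an umbellifer whose dried root is the drug Angelicae Pubescentis Radix, were compared between Gansu and Hubei, 2 of the 4 producing areas that were sequenced. The comparison rested on 6 of the 12 RNA-seq libraries, 3 of Gansu roots and 3 of Hubei roots, chosen by their labelled area. Both groups were roots aged 2 years, without any treatment or genotype in the labels, and were frozen after cleaning. The labels do not say that the 3 libraries of an area came from separate plants, and the p-values cover only variation among these libraries, part of which may be technical. No genome was used: a unigene is a transcript assembled de novo and carries the name of its best protein match, and a summed protein here is the sum of the counts of all unigenes that share the same best match (NR id). Protein values below are of these sums, and the identifier beside a protein is that of the unigene with most of its counts, which may differ from the sum. The Gansu libraries held 19920136, 20109608 and 23319714 counts and the Hubei libraries 22854146, 23029636 and 23133591. Of 67432 unigenes, 39556 had an NR id, and those without one took 6.38% to 9.04% of the counts of these 6 libraries. Levels are CPM, counts scaled to a common library size with TMM factors, as mean ± SD with n = 3 per area, and differences are log2 fold changes of Gansu over Hubei ± SE. All adjusted p-values are from edgeR's quasi-likelihood test with Benjamini-Hochberg adjustment over all features tested, and a feature was called when this value was under 0.05. A named protein is called higher or lower only where it passed this test.

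The root of an umbellifer is a storage organ that takes up sucrose from the phloem, keeps carbon as starch and sugars, and later supplies it to the flowering shoot. Coumarins, the characteristic compounds of this root, are made from phenylalanine through the phenylpropanoid pathway, which also feeds lignin and flavonoids. A bulk library averages all cells of the root, so fewer cells of a type and less RNA per cell cannot be told apart.

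The roots of the 2 areas differed across much of the transcriptome. Of 24806 summed proteins tested, 17313 (69.8%) were called, 8498 (34.3%) higher and 8815 (35.5%) lower in Gansu, and 8757 of them differed by 2-fold or more. Of 60756 unigenes tested, 30698 (50.5%) were called, 14568 (24.0%) higher and 16130 (26.5%) lower, and 21728 of them differed by 2-fold or more. The Gansu and Hubei libraries did not overlap for 71.9% of the summed proteins and 57.3% of the unigenes tested. Proteins named below by fold change, list or level had to meet this condition, so their lack of overlap adds nothing to the test. Spearman correlations of log2 CPM over unigenes were 0.942 to 0.956 among the Gansu libraries, 0.952 to 0.958 among the Hubei libraries and 0.711 to 0.728 between the areas. Over summed proteins they were 0.990 to 0.994 within areas and 0.839 to 0.847 between them. No between-area pair of libraries reached the correlation of any pair within an area. With so high a background, a list of proteins is described below by its counts in each direction and its median, to be read beside 34.3% higher, 35.5% lower and a median of 0.00 for all summed proteins. The summed log2 fold changes were 0.13 higher than those of the unigene fit (median over 17087 proteins of 1 unigene), since each table has its own TMM factors, so the sign of a median or fold change this close to 0 depends on the scaling.

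**Figure D1:**
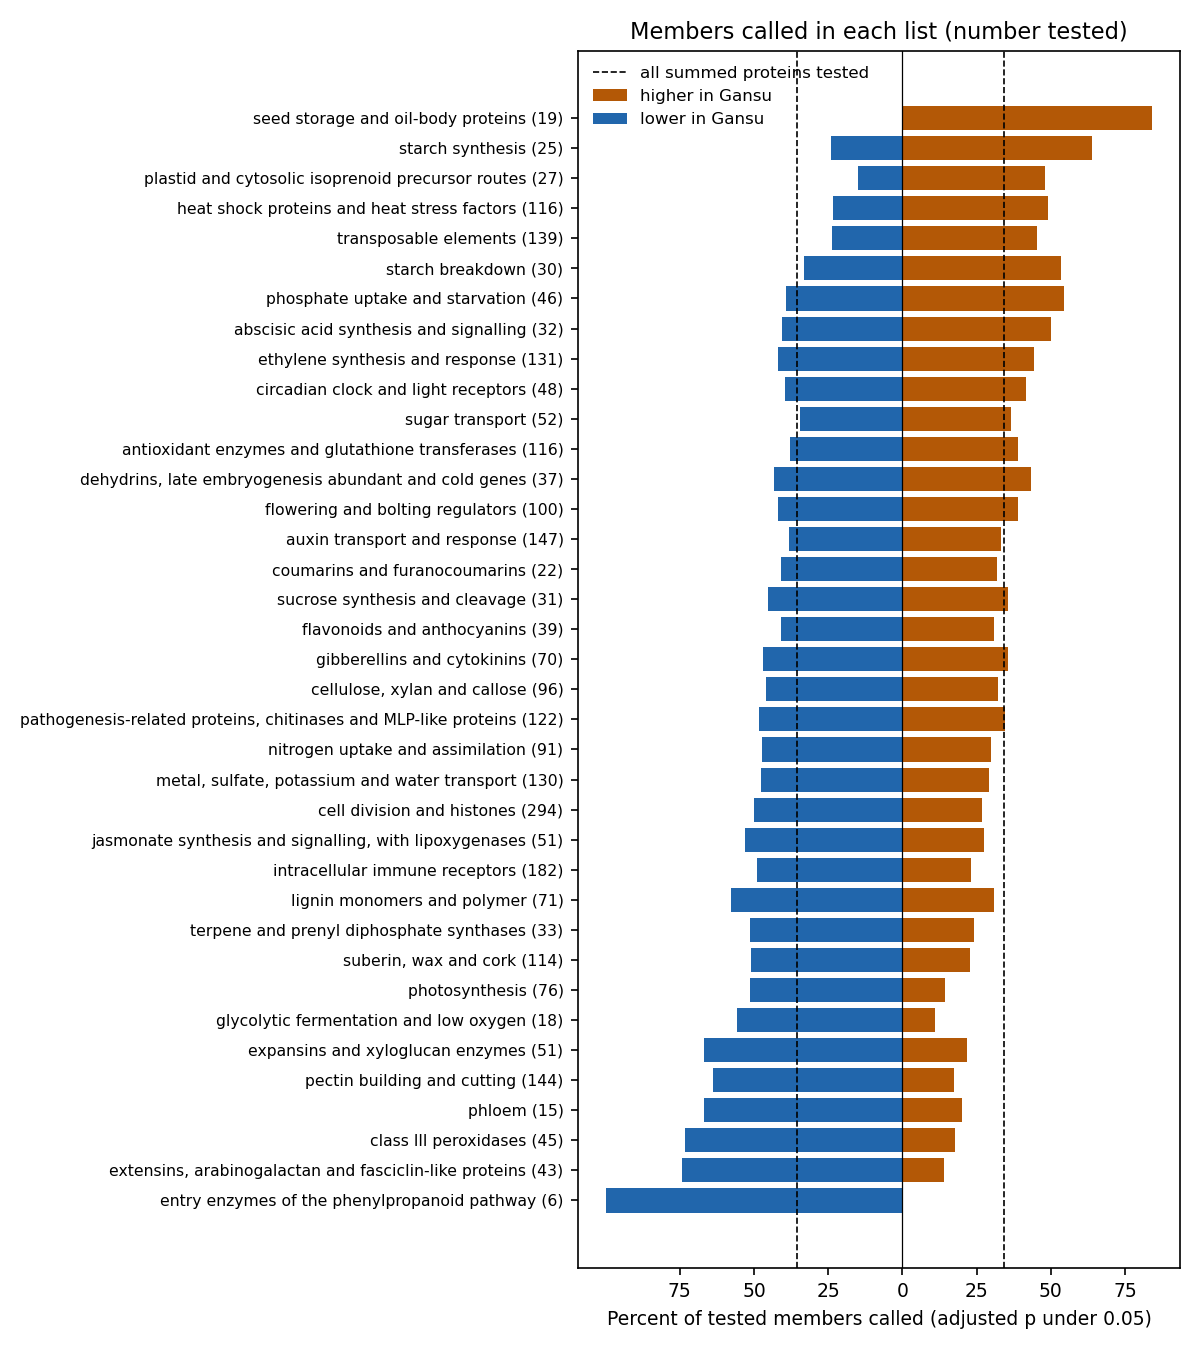
Percent of the tested summed proteins of each list called higher (orange, to the right) or lower (blue, to the left) in Gansu roots than in Hubei roots, with the number tested in parentheses. The dashed lines stand at 34.3% and 35.5%, the shares over all 24806 summed proteins; seed storage and starch synthesis proteins lie at the top, and extensins, peroxidases and the phenylpropanoid entry enzymes at the bottom.

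Transcripts of seed storage proteins were among the largest differences and were high in Gansu roots. Vicilins are storage globulins of seeds. A vicilin-like seed storage protein (TRINITY_DN20561_c1_g6_i3_2) stood at 3769, 4043 and 3711 CPM in the Gansu libraries and 11.5, 7.77 and 9.48 in the Hubei libraries, log2 fold change 8.65 ± 0.15, edgeR adjusted p = 1.8e-14. The areas did not overlap, and the lowest Gansu library lay far above the highest Hubei library. A second vicilin-like protein (TRINITY_DN23892_c0_g1_i7_4) stood at 2275, 2622 and 2088 CPM in the Gansu libraries and 4.4, 2.41 and 4.9 in the Hubei libraries, log2 fold change 9.22 ± 0.17, edgeR adjusted p = 3.4e-14. The protein matched as allergen Ric c 1 large chain (TRINITY_DN14807_c0_g1_i2_3), which in castor bean is a seed storage albumin, stood at 3917, 4158 and 4076 CPM in the Gansu libraries and 27.8, 21.8 and 22.4 in the Hubei libraries, log2 fold change 7.40 ± 0.11, edgeR adjusted p = 3.7e-15. None of these 3 proteins overlapped between the areas.

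Proteins of oil bodies, the lipid droplets of seeds and other storage tissue, went the same way. An oleosin (TRINITY_DN7713_c0_g1_i1_1), a coat protein of oil bodies, stood at 64.5 ± 3.32 CPM in Gansu against 2.73 ± 0.539 in Hubei, log2 fold change 4.56 ± 0.14, edgeR adjusted p = 5e-12. Oleosin 16 kDa (TRINITY_DN25440_c0_g1_i1_4) had 3692 counts over the 3 Gansu libraries and 6 over the 3 Hubei libraries, and oil body-associated protein 2A (TRINITY_DN13289_c0_g1_i1_3) had 691 and 15. In a list of seed storage and oil-body proteins put together after these values were seen, 16 of 19 tested proteins were called higher and 0 lower in Gansu, with a median log2 fold change of 5.19. The 3 members that were not called were peroxygenases, oil-body enzymes with other roles as well, and each of these was called when a certain library was left out. The peroxygenase TRINITY_DN17364_c0_g1_i3_2 was then higher, at a log2 fold change of 0.34 without Gansu replicate 2 and 0.29 without Hubei replicate 2 or 3, TRINITY_DN17182_c0_g1_i1_3 was higher, at 0.65 without Hubei replicate 2, and TRINITY_DN18248_c0_g1_i4_4 was lower, at -0.85 without Gansu replicate 3. The summed level of the list was 10166 to 11116 CPM in Gansu and 124 to 129.6 in Hubei. Chongqing roots, not part of the comparison, had mean levels of 1997 CPM and 921 CPM for the vicilin-like proteins, and Shanxi roots 10.5 CPM and 5.48 CPM.

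Proteins of desiccation tolerance and protein folding differed in both directions. Late embryogenesis abundant (LEA) proteins accumulate in maturing seeds and in dry or cold tissue. LEA protein D-29 (TRINITY_DN18644_c0_g1_i2_1) stood at 1859.7, 1804 and 1852 CPM in the Gansu libraries and 219.9, 224 and 219 in the Hubei libraries, log2 fold change 3.06 ± 0.04, edgeR adjusted p = 3.2e-15, without overlap. LEA protein D-34 (TRINITY_DN19020_c0_g1_i1_1) stood at 1107 ± 84.8 CPM in Gansu against 5.39 ± 0.441 in Hubei, log2 fold change 7.68 ± 0.09, edgeR adjusted p = 1.2e-15. LEA protein Lea14-A (TRINITY_DN17173_c0_g1_i2_3) was lower in Gansu, 18.2 against 126 CPM, log2 fold change -2.79 ± 0.06. Over dehydrins, LEA and cold-regulated proteins, 16 of 37 tested proteins were called higher and 16 lower in Gansu, with a median log2 fold change of -0.18, so the list as a whole was split. At unigenes, 23 of 51 unigenes of the list were called higher and 17 lower, with a median of 0.13. The summed level was 5796 to 6175 CPM in Gansu and 2169 to 2208 in Hubei. A protein named Rab 15 in its match (TRINITY_DN7819_c0_g1_i2_4), outside that list and picked after its values were seen, stood at 3876 ± 301 CPM in Gansu against 23.8 ± 1.14 in Hubei, log2 fold change 7.35 ± 0.07, edgeR adjusted p = 6.5e-16. Its main unigene alone had a log2 fold change of 9.11 ± 0.26 (3347 against 6.11 CPM).

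Heat shock proteins, the chaperones of protein folding, were more often higher in Gansu. A heat shock 70 kDa protein (TRINITY_DN20895_c0_g3_i1_3) stood at 724, 795 and 701 CPM in the Gansu libraries and 28.8, 27.7 and 25.3 in the Hubei libraries, log2 fold change 4.76 ± 0.07, edgeR adjusted p = 3e-15, without overlap between the areas. Heat shock cognate 70 kDa protein 2 was also higher, 1727 against 513 CPM, log2 fold change 1.75 ± 0.06, while a 17.8 kDa class I heat shock protein was lower, 175 against 245 CPM, log2 fold change -0.48 ± 0.05. Over all heat shock proteins and heat stress factors, 57 of 116 tested proteins were called higher and 27 lower in Gansu, with a median log2 fold change of 0.45. Of the 22 members of the HSF family of heat stress transcription factors, 11 were called higher and 8 lower.

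**Figure D2:**
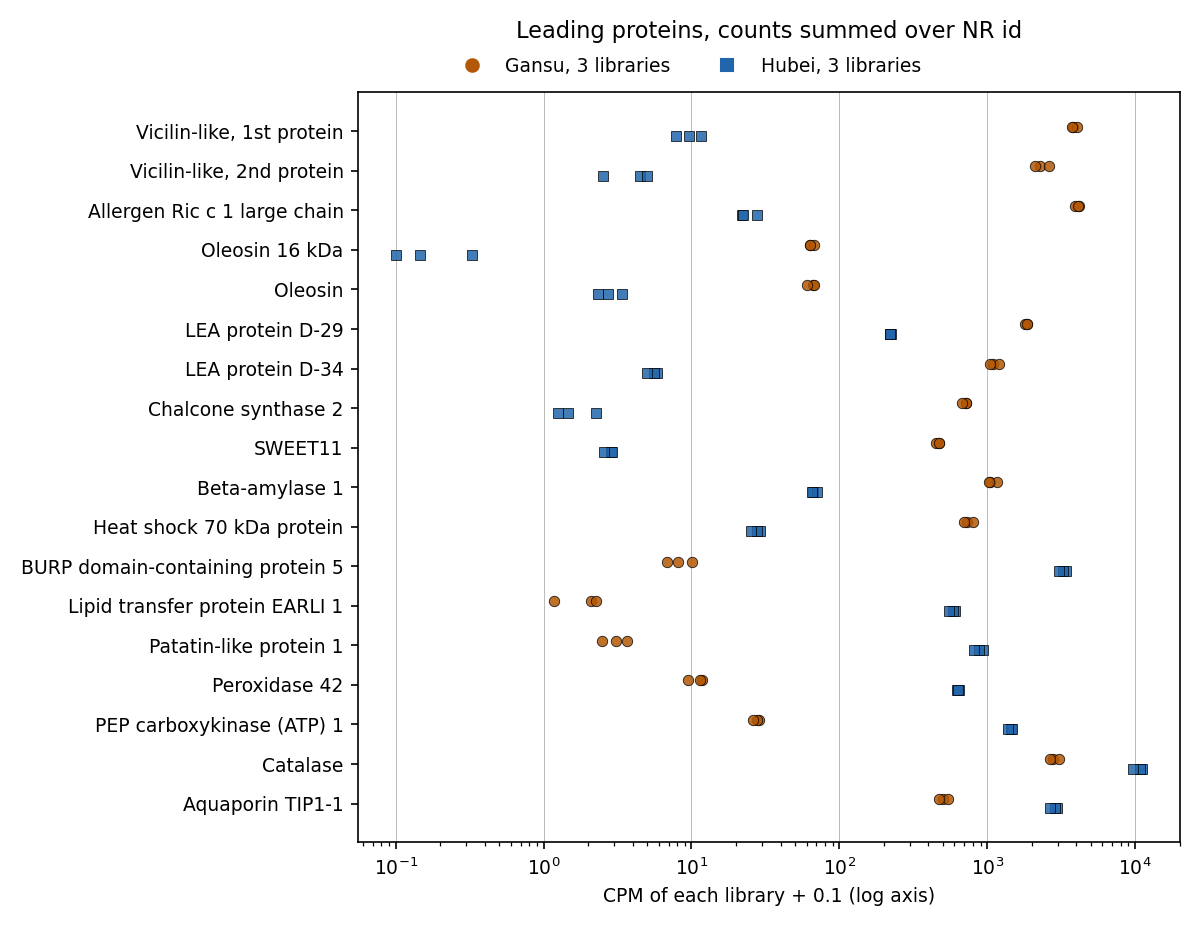
CPM plus 0.1, on a log axis, of 18 leading summed proteins in each of the 3 Gansu (orange circles) and 3 Hubei (blue squares) libraries. Storage proteins, LEA proteins, chalcone synthase 2, SWEET11, beta-amylase 1 and the heat shock 70 kDa protein were higher in all 3 Gansu libraries, and the 7 proteins in the lower part were higher in all 3 Hubei libraries.

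Starch enzymes were more often higher in Gansu roots. Among enzymes of starch synthesis, 16 of 25 tested proteins were called higher and 6 lower in Gansu, with a median log2 fold change of 0.30, and their summed level was 4522 to 4569.8 CPM in Gansu and 2779 to 2843 in Hubei. Glucose-1-phosphate adenylyltransferase makes the glucose donor for starch, and 2 proteins matched as its large subunit were higher in Gansu. The first (TRINITY_DN24749_c0_g1_i14_3) stood at 794 ± 28.6 CPM in Gansu against 395 ± 2.83 in Hubei, log2 fold change 1.01 ± 0.04, edgeR adjusted p = 3.8e-11, and the second (TRINITY_DN22886_c0_g1_i16_4) at 713 ± 19.9 CPM in Gansu against 74.9 ± 2.39 in Hubei, log2 fold change 3.25 ± 0.08, edgeR adjusted p = 2.3e-13. A small subunit of the same enzyme was lower, 136 against 238 CPM, log2 fold change -0.81 ± 0.05. Granule-bound starch synthase 1, which makes amylose, was higher, 566 against 344 CPM, log2 fold change 0.72 ± 0.05, and soluble starch synthase 3 was lower, 140.2 against 217 CPM, log2 fold change -0.63 ± 0.05.

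Among enzymes of starch breakdown, 16 of 30 tested proteins were called higher and 10 lower in Gansu, with a median log2 fold change of 0.31. Beta-amylase 1 (TRINITY_DN22965_c1_g3_i19_1), a plastid enzyme that releases maltose from starch, stood at 1044, 1166 and 1020.000 CPM in the Gansu libraries and 66.3, 69.98 and 64.9 in the Hubei libraries, log2 fold change 4.00 ± 0.06, edgeR adjusted p = 9.3e-15. The areas were separated by a wide gap for this enzyme. The plastid alpha-1,4 glucan phosphorylase (TRINITY_DN24839_c0_g1_i6_3) stood at 3227 ± 64.6 CPM in Gansu against 1453 ± 16.2 in Hubei, log2 fold change 1.15 ± 0.04. Alpha-glucan water dikinase, which phosphorylates starch granules at the start of breakdown, was lower in Gansu, 341 against 643 CPM, log2 fold change -0.91 ± 0.04.

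Enzymes of sucrose synthesis and cleavage were split, and 11 of 31 tested proteins were called higher and 14 lower in Gansu, with a median log2 fold change of -0.57. The summed level was 1643 to 1765 CPM in Gansu and 1464 to 1604 in Hubei. Sucrose synthase 3 (TRINITY_DN20225_c0_g1_i11_1), which cleaves sucrose to UDP-glucose and fructose, stood at 442, 460.2 and 441 CPM in the Gansu libraries and 50.9, 48.1 and 46.6 in the Hubei libraries, log2 fold change 3.21 ± 0.05, edgeR adjusted p = 3.7e-15. Another sucrose synthase, isoform 1 (TRINITY_DN21320_c0_g2_i10_3), was lower, 536 against 813 CPM, log2 fold change -0.60 ± 0.06. The same reaction was thus matched by members called in opposite directions. A probable sucrose-phosphate synthase 4, an enzyme of sucrose synthesis, was higher, 68.8 against 4.66 CPM, log2 fold change 3.88 ± 0.08.

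Sugar transporters were called near the background in both directions, though single members differed by large amounts. Of 52 tested proteins, 19 (36.5%) were called higher and 18 (34.6%) lower in Gansu, with a median log2 fold change of 0.08. SWEET proteins let sugars cross membranes by facilitated diffusion. SWEET11 (TRINITY_DN20880_c0_g1_i5_3) stood at 471, 447 and 473 CPM in the Gansu libraries and 2.76, 2.82 and 2.45 in the Hubei libraries, log2 fold change 7.43 ± 0.13, edgeR adjusted p = 1.8e-14. Every Gansu library lay above every Hubei library. Also higher in Gansu were SWEET1, 19.6 against 1.18 CPM, log2 fold change 4.04 ± 0.13, SWEET14, 21.4 against 2.81 CPM, log2 fold change 2.93 ± 0.12, and both listed SWEET10 proteins. The first of these (TRINITY_DN15681_c0_g1_i1_1) stood at 54.8 against 5.2 CPM, log2 fold change 3.40 ± 0.10, and the second (TRINITY_DN15030_c0_g1_i1_4) at 72.05 against 0.341 CPM, log2 fold change 7.71 ± 0.19, or 8.41 without Hubei replicate 1. Of 2 listed SWEET7 proteins, the first (TRINITY_DN16519_c0_g1_i1_3) was higher, 44.5 against 0.231 CPM, log2 fold change 7.56 ± 0.18, and the second (TRINITY_DN12042_c0_g1_i3_4) lower, 262 against 302 CPM, log2 fold change -0.21 ± 0.05. The main unigene of that second SWEET7 protein alone was not called, at -0.04 ± 0.08 (157 against 162 CPM) with an edgeR adjusted p of 0.67, and that of SWEET1 stood at 4.71 ± 0.17 (14.9 against 0.563 CPM). SWEET2 was lower, 49.9 against 83.2 CPM, log2 fold change -0.74 ± 0.06.

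Other sugar carriers were called in both directions. Sugar transport protein 14 (TRINITY_DN15681_c0_g1_i2_2) stood at 21.2 ± 0.299 CPM in Gansu against 203 ± 5.45 in Hubei, log2 fold change -3.26 ± 0.06, edgeR adjusted p = 5.3e-14. Sugar carrier protein C (TRINITY_DN9467_c0_g1_i1_2) stood at 1.17 ± 0.203 CPM in Gansu against 72.4 ± 5.36 in Hubei, log2 fold change -5.94 ± 0.13, edgeR adjusted p = 9.8e-14. Of 2 proteins matched as sugar transport protein 13, TRINITY_DN19671_c0_g1_i1_3 was higher in Gansu, 118 against 22.6 CPM, log2 fold change 2.39 ± 0.08, and TRINITY_DN32539_c0_g1_i1_3 lower, 1.74 against 21.1 CPM, log2 fold change -3.60 ± 0.14. Sucrose transporters, which load sucrose across the plasma membrane or the vacuole membrane, differed by less. SUC1 and SUC2 were lower, with log2 fold changes of -0.45 ± 0.07 and -0.67 ± 0.14, SUC4 was higher with a log2 fold change of 0.22 ± 0.07 but not called without Gansu replicate 2 (0.16, edgeR adjusted p = 0.053) or with the TMM factors of the unigene table (0.10, edgeR adjusted p = 0.34), and SUC3 had a log2 fold change of 0.17 ± 0.18 with an edgeR adjusted p of 0.4, which did not pass.

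**Figure D3:**
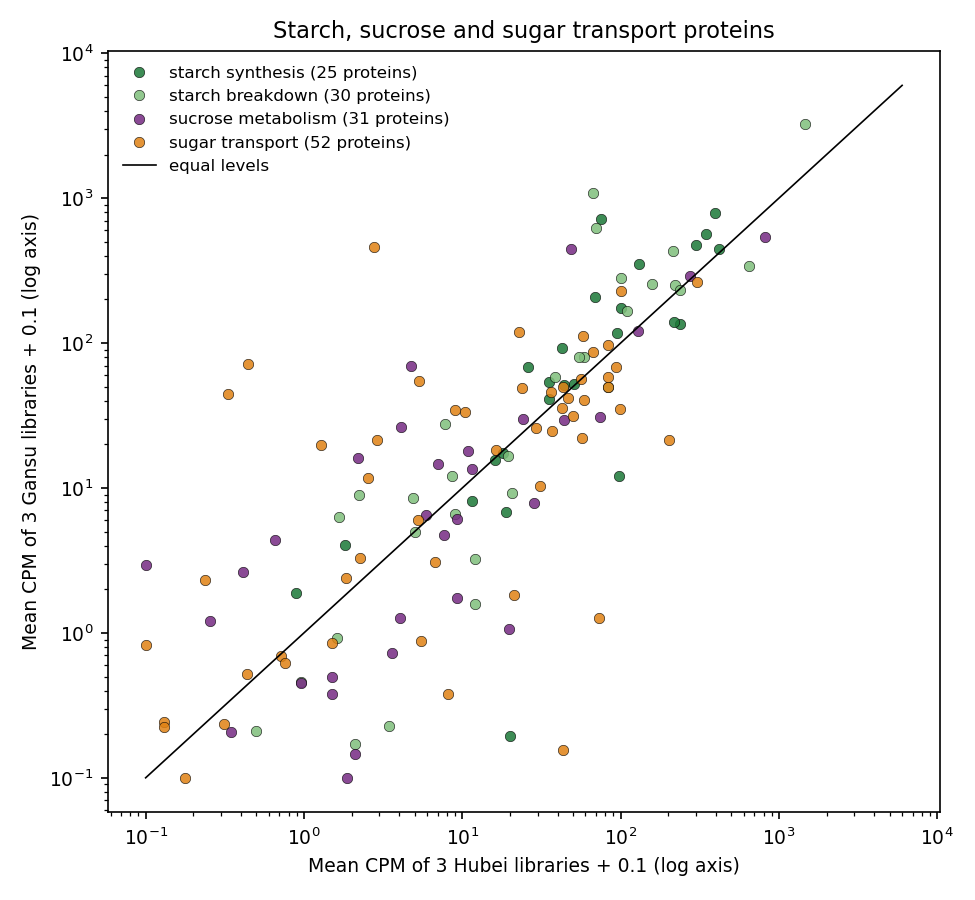
Mean CPM plus 0.1 of each tested summed protein of 4 sugar lists in the 3 Gansu libraries (vertical, log axis) against the 3 Hubei libraries (horizontal, log axis), with the line of equal levels. SWEET11, with 464 against 2.68 CPM, lies far above the line, as does beta-amylase 1 with 1077 against 67.1 CPM.

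Enzymes at the entry of the phenylpropanoid pathway were lower in Gansu roots, by modest amounts, while coumarin enzymes went both ways. All 6 tested entry proteins were called lower, with a median of -0.66. Phenylalanine ammonia-lyase 3 (TRINITY_DN23454_c1_g2_i2_3), which removes ammonia from phenylalanine, stood at 294, 301 and 272 CPM in the Gansu libraries and 489, 477 and 445 in the Hubei libraries, log2 fold change -0.70 ± 0.06, edgeR adjusted p = 2.4e-07. Trans-cinnamate 4-monooxygenase (TRINITY_DN18621_c0_g1_i3_4), the hydroxylase that follows, stood at 557, 605 and 528 CPM in the Gansu libraries and 924, 884 and 797 in the Hubei libraries, log2 fold change -0.62 ± 0.06, edgeR adjusted p = 8.2e-07. The areas did not overlap for either enzyme. For the monooxygenase, the main unigene alone had a log2 fold change of -1.41 ± 0.08 (223 against 592 CPM). Of 3 proteins matched as 4-coumarate--CoA ligase 1, which activates the product, TRINITY_DN22443_c1_g2_i2_2 stood at 179 ± 17.4 CPM in Gansu against 368 ± 23.3 in Hubei, log2 fold change -1.04 ± 0.07.

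Among the 22 tested proteins of coumarin and furanocoumarin synthesis, 7 were called higher and 9 lower, with a median of -0.47, or -0.20 with members at 0 counts in an area at their bound. The unit of counting changed this picture: 16 of 39 unigenes of the list were called higher and 14 lower, with a median of 0.10. The summed level of the list was higher in Gansu, 4893 to 5402 CPM in Gansu and 3001 to 3304 in Hubei. Feruloyl CoA ortho-hydroxylase, whose product closes to a simple coumarin, was matched as F6H1-2 by TRINITY_DN22251_c0_g1_i3_3, which was higher, 922 against 676 CPM, log2 fold change 0.45 ± 0.04. A protein matched as F6H1-3 (TRINITY_DN19700_c0_g2_i1_3) was lower, with a log2 fold change of -1.21 ± 0.07, or -2.27 ± 0.15 (9.66 against 46.8 CPM) for its main unigene alone. Umbelliferone 6-dimethylallyl transferase adds a prenyl group to umbelliferone on the way to linear furanocoumarins. Of its 3 listed proteins, TRINITY_DN22720_c1_g1_i16_4 stood at 730.4, 772 and 703 CPM in the Gansu libraries and 169, 169 and 161 in the Hubei libraries, log2 fold change 2.14 ± 0.05, edgeR adjusted p = 1.7e-13. The 2 others were lower, with a log2 fold change of -0.55 ± 0.07 (TRINITY_DN22720_c0_g1_i6_4) and -1.69 ± 0.15 (TRINITY_DN22840_c0_g2_i6_3). The main unigene alone had 2.74 ± 0.11 (431 against 64.7 CPM) for the first and -1.86 ± 0.12 (29.996 against 109 CPM) for the second of these 3 proteins, as log2 fold changes.

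Psoralen synthase, a cytochrome P450 that makes the furanocoumarin psoralen, had 3 listed proteins that differed in direction. The protein TRINITY_DN21601_c0_g3_i1_1 stood at 1222, 1350.5 and 1239 CPM in the Gansu libraries and 161, 144 and 142 in the Hubei libraries, log2 fold change 3.09 ± 0.07, edgeR adjusted p = 1.7e-13. Its areas did not overlap. The protein TRINITY_DN22496_c0_g4_i1_2 was lower in Gansu, 26.1 against 102 CPM, log2 fold change -1.96 ± 0.11, and TRINITY_DN21646_c2_g2_i6_2 higher, 13.3 against 8.13 CPM, log2 fold change 0.72 ± 0.11. Bergaptol O-methyltransferase, which makes bergapten from bergaptol, was matched by TRINITY_DN22889_c3_g1_i9_1, higher in Gansu with 1125 against 581 CPM, log2 fold change 0.95 ± 0.07, and by TRINITY_DN20534_c0_g1_i1_2, lower with 697 against 1046 CPM, log2 fold change -0.58 ± 0.07. The main unigene of that lower bergaptol O-methyltransferase alone had a log2 fold change of -2.39 ± 0.13 (181 against 953 CPM). Scopoletin glucosyltransferase (TRINITY_DN22166_c0_g1_i6_4) stood at 78.6 ± 2.22 CPM in Gansu against 79.2 ± 4.82 in Hubei, log2 fold change -0.01 ± 0.06 with an edgeR adjusted p of 0.88, which did not pass. Proteins that share an enzyme name can be close copies, and how reads were divided among similar unigenes is not given in the sources used here, so the split between such members is uncertain.

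**Figure D4:**
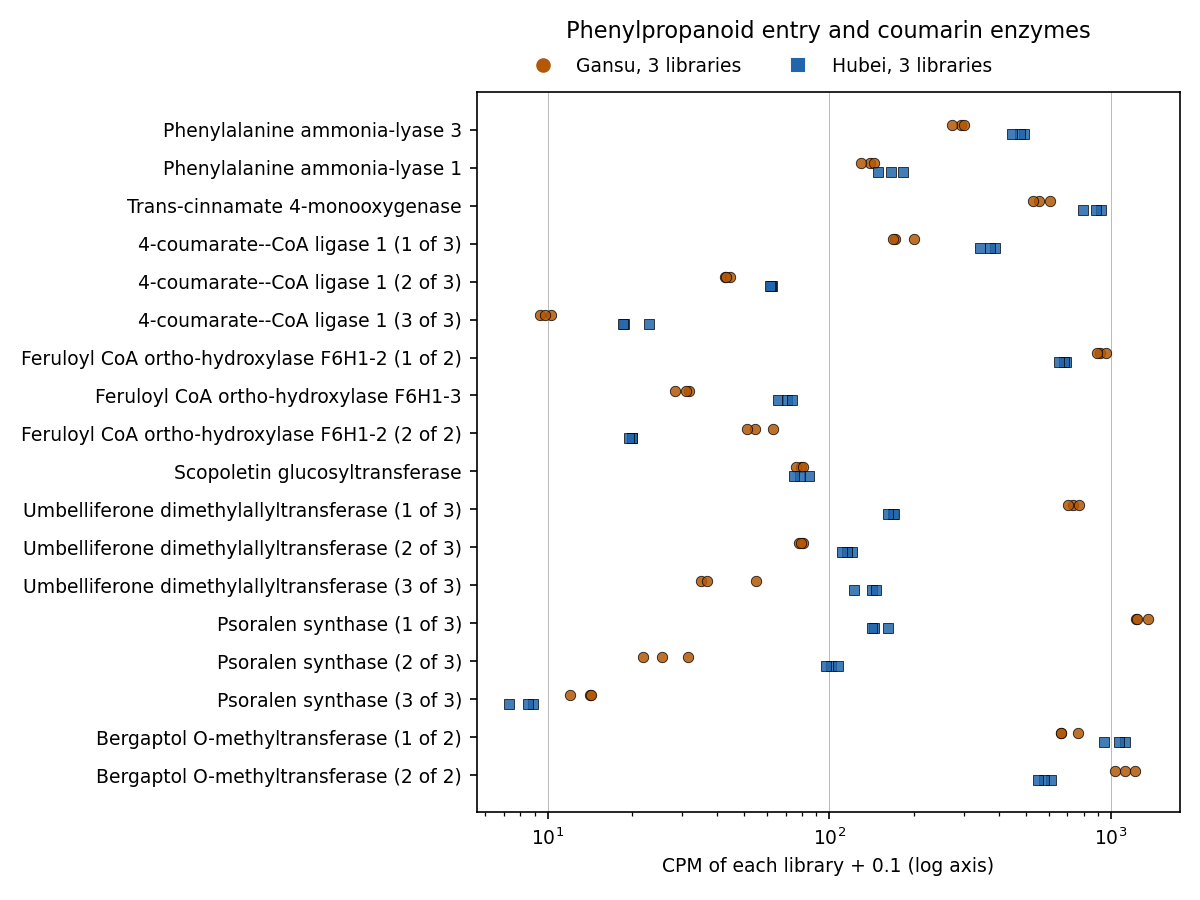
CPM plus 0.1, on a log axis, of the 18 phenylpropanoid entry and coumarin proteins with a mean of 10 CPM or more, in each of the 3 Gansu (orange circles) and 3 Hubei (blue squares) libraries; proteins that share an enzyme name are numbered. The entry enzymes lie lower in Gansu, while umbelliferone dimethylallyl transferase, psoralen synthase and bergaptol O-methyltransferase each have members on both sides.

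Lignin enzymes and class III peroxidases, secreted enzymes that oxidise phenolics in the wall, were more often lower in Gansu. Among lignin proteins, 22 of 71 tested proteins were called higher and 41 lower in Gansu, with a median log2 fold change of -0.45. Cytochrome P450 98A2, which hydroxylates coumaroyl esters, was lower, 195 against 525 CPM, log2 fold change -1.43 ± 0.06, as was dirigent protein 2 (TRINITY_DN19412_c0_g1_i2_3), 223 against 1143 CPM, log2 fold change -2.36 ± 0.06. Caffeic acid 3-O-methyltransferase and laccase-14 were higher, with log2 fold changes of 0.83 ± 0.04 and 1.42 ± 0.05. Among class III peroxidases, 8 of 45 tested proteins were called higher and 33 lower in Gansu, with a median log2 fold change of -2.06. Peroxidase 42 (TRINITY_DN10457_c0_g1_i2_4) stood at 9.33, 11.6 and 11.3 CPM in the Gansu libraries and 646, 624 and 635 in the Hubei libraries, log2 fold change -5.88 ± 0.07, edgeR adjusted p = 9e-16, without overlap. Peroxidase N1 was lower as well, 131 against 516 CPM, log2 fold change -1.97 ± 0.07, while peroxidases 4 and 39 were higher, with log2 fold changes of 1.25 ± 0.08 and 1.15 ± 0.06.

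Flavonoid enzymes were split, apart from a large rise of chalcone synthase. Chalcone synthase 2 (TRINITY_DN22168_c2_g1_i3_4), which joins the phenylpropanoid and malonyl units of flavonoids, stood at 714, 719 and 676 CPM in the Gansu libraries and 2.15, 1.16 and 1.36 in the Hubei libraries, log2 fold change 8.82 ± 0.11, edgeR adjusted p = 2e-15. The highest Hubei library lay far below the lowest Gansu library. Of the whole flavonoid and anthocyanin list, 12 of 39 tested proteins were called higher and 16 lower in Gansu, with a median log2 fold change of -0.12. The summed level was 1524 to 1589 CPM in Gansu and 1047 to 1096 in Hubei. Of 2 proteins matched as flavonoid 3'-monooxygenase CYP75B137, both were lower, with log2 fold changes of -0.56 ± 0.06 and -1.24 ± 0.05. For the latter, the main unigene alone had -2.81 ± 0.12 (16.4 against 115 CPM).

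Terpene synthases make the scent and resin terpenes of umbellifers. They were listed together with prenyl diphosphate synthases, and the list was more often lower in Gansu. Of its 33 tested proteins, 8 were called higher and 17 lower, with a median log2 fold change of -0.51. Beta-bisabolene synthase (TRINITY_DN14865_c0_g1_i1_4), a sesquiterpene enzyme, stood at 3.998, 3.46 and 3.34 CPM in the Gansu libraries and 128, 136 and 129 in the Hubei libraries, log2 fold change -5.18 ± 0.11, edgeR adjusted p = 1.3e-13. Myrcene synthase (TRINITY_DN18936_c0_g1_i1_3), a monoterpene enzyme, stood at 32.03 ± 2.81 CPM in Gansu against 245 ± 18.1 in Hubei, log2 fold change -2.93 ± 0.08, edgeR adjusted p = 1.7e-12. Sesquiterpene synthase 2 was higher, 25.5 against 9.98 CPM, log2 fold change 1.35 ± 0.10. In the routes that make the terpene precursors, 13 of 27 tested proteins were called higher and 4 lower in Gansu, with a median log2 fold change of 0.12, and 7 rather than 4 were called lower with the TMM factors of the unigene table. Isopentenyl-diphosphate delta-isomerase I, which interconverts the C5 precursors, was higher, 531 against 132 CPM, log2 fold change 2.00 ± 0.06, and a 1-deoxy-D-xylulose-5-phosphate synthase (TRINITY_DN13646_c0_g2_i1_3), the first enzyme of the plastid route, was lower, 6.15 against 174 CPM, log2 fold change -4.83 ± 0.10.

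Cell wall proteins were more often lower in Gansu roots. Among extensins, arabinogalactan and fasciclin-like proteins, structural glycoproteins of the wall, 6 of 43 tested proteins were called higher and 32 lower in Gansu, with a median log2 fold change of -2.24. Leucine-rich repeat extensin-like protein 5 (TRINITY_DN20459_c0_g1_i1_3) stood at 7.77, 8.08 and 8.43 CPM in the Gansu libraries and 292, 307 and 371 in the Hubei libraries, log2 fold change -5.32 ± 0.11, edgeR adjusted p = 7.2e-14. The proline-rich 33 kDa extensin-related protein was higher, 3275 against 2489.6 CPM, log2 fold change 0.40 ± 0.05. Among expansins and xyloglucan enzymes, which loosen and rejoin the wall, 11 of 51 tested proteins were called higher and 34 lower in Gansu, with a median log2 fold change of -1.70. A xyloglucan endotransglucosylase/hydrolase (TRINITY_DN23498_c0_g1_i12_2) stood at 25.4, 23.5 and 23.03 CPM in the Gansu libraries and 413, 385 and 356 in the Hubei libraries, log2 fold change -4.00 ± 0.08, edgeR adjusted p = 4.2e-14. Its main unigene alone had a log2 fold change of -4.94 ± 0.17 (8.49 against 259 CPM). Among proteins that build and cut pectin, 25 of 144 tested proteins were called higher and 92 lower in Gansu, with a median log2 fold change of -1.0 (-0.87 with members at 0 counts in an area at their bound). Among proteins for cellulose, xylan and callose, 31 of 96 tested proteins were called higher and 44 lower in Gansu, with a median log2 fold change of -0.17. Cellulose synthase A catalytic subunits 1 and 3, which build primary wall cellulose in Arabidopsis, were lower, with log2 fold changes of -1.32 ± 0.05 and -0.90 ± 0.04. For subunit 1, the main unigene alone had a log2 fold change of -3.01 ± 0.11 (60.1 against 483 CPM).

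Among the proteins with the lowest log2 fold changes of Gansu over Hubei were a BURP domain protein and a lipid transfer protein. BURP domain-containing protein 5 (TRINITY_DN23001_c0_g2_i3_3), of a plant family of secreted proteins, stood at 8.05, 9.92 and 6.78 CPM in the Gansu libraries and 3381, 3259.7 and 3036 in the Hubei libraries, log2 fold change -8.62 ± 0.16, edgeR adjusted p = 4.2e-14. The lipid transfer protein EARLI 1 (TRINITY_DN12967_c0_g1_i1_3) stood at 1.999, 2.17 and 1.08 CPM in the Gansu libraries and 609, 582 and 552 in the Hubei libraries, log2 fold change -8.40 ± 0.16, edgeR adjusted p = 4.3e-14. Neither protein overlapped between the areas. Picked by level among proteins that differed by 8-fold or more, after the values were seen, were also patatin-like protein 1 (TRINITY_DN20858_c0_g1_i11_2), of a family of lipid acyl hydrolases, 2.99 against 878 CPM, log2 fold change -8.21 ± 0.14, a mannose-specific lectin-like protein (TRINITY_DN10581_c0_g1_i1_3), 5.32 against 832 CPM, log2 fold change -7.30 ± 0.11, and the BURP domain protein RD22 (TRINITY_DN21194_c2_g3_i6_2), 348 against 5240.3 CPM, log2 fold change -3.91 ± 0.06, or -8.66 ± 0.25 (11.6 against 4689 CPM) for its main unigene alone. A pair of phosphoenolpyruvate carboxykinases, enzymes that turn oxaloacetate to phosphoenolpyruvate for gluconeogenesis, were lower in Gansu. The first (TRINITY_DN25037_c1_g1_i23_3) stood at 28.7, 27.7 and 26.05 CPM in the Gansu libraries and 1437, 1466 and 1377 in the Hubei libraries, log2 fold change -5.70 ± 0.06, edgeR adjusted p = 7.7e-16, with -6.49 ± 0.09 (15.02 against 1344 CPM) for its main unigene alone, and the second (TRINITY_DN21330_c1_g2_i3_2) at 11.4 ± 2.72 CPM in Gansu against 1039.7 ± 76.9 in Hubei, log2 fold change -6.52 ± 0.14, edgeR adjusted p = 8.5e-14. A polyphenol oxidase (TRINITY_DN14988_c0_g1_i1_2), which oxidises phenolics to quinones, was lower, 367 against 3938 CPM, log2 fold change -3.42 ± 0.11.

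Defense proteins changed in both directions with large sizes. Among pathogenesis-related proteins, chitinases and major latex-like proteins, 42 of 122 tested proteins were called higher and 59 lower in Gansu, with a median log2 fold change of -0.34. The summed level was higher in Gansu, 34339.5 to 37880.1 CPM in Gansu and 25765 to 28658 in Hubei. The celery allergen homologs of pathogenesis-related family 10 went opposite ways. Major allergen Api g 1 isoallergen 2 (TRINITY_DN21333_c0_g2_i4_4) stood at 12104, 12899 and 11715 CPM in the Gansu libraries and 2486, 2347 and 2036 in the Hubei libraries, log2 fold change 2.42 ± 0.07, edgeR adjusted p = 2.6e-12, and isoallergen 1 (TRINITY_DN17384_c0_g1_i2_3) at 656, 700.4 and 627 CPM in the Gansu libraries and 4657, 4464 and 4064 in the Hubei libraries, log2 fold change -2.73 ± 0.07, edgeR adjusted p = 4.4e-13. The areas did not overlap for either isoallergen. Pathogenesis-related protein A (TRINITY_DN17288_c0_g1_i1_3) was lower, 3979.6 against 12068 CPM, log2 fold change -1.60 ± 0.06. An endochitinase (TRINITY_DN22591_c0_g1_i3_3), which cuts the chitin of fungal walls, was higher, 3128 ± 178 CPM in Gansu against 348 ± 26.5 in Hubei, log2 fold change 3.17 ± 0.07, or 2.50 ± 0.09 (1891 against 334 CPM) for its main unigene alone. Outside the naming rule and picked after their values were seen, an acidic endochitinase (TRINITY_DN31231_c0_g1_i1_1), 1306 against 39.7 CPM, log2 fold change 5.04 ± 0.08, osmotin-like protein OSML13 (TRINITY_DN19783_c0_g1_i2_1), 2628 against 61.6 CPM, log2 fold change 5.42 ± 0.06, and a PR-1 type protein (TRINITY_DN23444_c1_g1_i1_1), 1359 against 16.3 CPM, log2 fold change 6.38 ± 0.08, were higher too. Germin-like protein 8-2 (TRINITY_DN23576_c1_g1_i1_3), picked in the same way, stood at 6569, 7079.5 and 6446 CPM in the Gansu libraries and 276, 252 and 241 in the Hubei libraries, log2 fold change 4.71 ± 0.15, edgeR adjusted p = 5.5e-12. Among intracellular immune receptors, 42 of 182 tested proteins were called higher and 89 lower in Gansu, with a median log2 fold change of -0.37, with disease resistance protein RUN1 lower, 62.2 against 255 CPM, log2 fold change -2.04 ± 0.09.

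Antioxidant enzymes were called near the background in both directions, and 45 of 116 tested proteins were called higher and 44 lower in Gansu, with a median log2 fold change of 0.10. Catalase (TRINITY_DN23552_c0_g2_i2_3), which breaks down hydrogen peroxide, stood at 2770.1, 3066 and 2659.9 CPM in the Gansu libraries and 11186, 10789 and 9722 in the Hubei libraries, log2 fold change -1.90 ± 0.07, edgeR adjusted p = 2.7e-11. Glutathione S-transferase L3 was higher, 945 against 268 CPM, log2 fold change 1.82 ± 0.07, and so was a cytosolic L-ascorbate peroxidase, 857 against 529 CPM, log2 fold change 0.70 ± 0.08. Metallothionein-like protein type 2 (TRINITY_DN10661_c0_g1_i1_3), a metal-binding protein outside the list and picked after its values were seen, stood at 4026 ± 178 CPM in Gansu against 241 ± 19.4 in Hubei, log2 fold change 4.06 ± 0.07, edgeR adjusted p = 2.3e-14. Among enzymes of fermentation and low oxygen, 2 of 18 tested proteins were called higher and 10 lower in Gansu, with a median log2 fold change of -0.25, while the summed level was 1791 to 1952 CPM in Gansu and 1586 to 1751 in Hubei, with alcohol dehydrogenase 2 higher, 991 against 494 CPM, log2 fold change 1.01 ± 0.06, and pyruvate decarboxylase 1 lower, 102 against 239 CPM, log2 fold change -1.22 ± 0.05.

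Hormone proteins were mixed. For abscisic acid, the hormone of seed maturation and drought, 16 of 32 tested proteins were called higher and 13 lower in Gansu, with a median log2 fold change of 0.35. Of abscisic acid 8'-hydroxylases CYP707A2, which break the hormone down, TRINITY_DN23249_c0_g1_i7_3 stood at 34.8 ± 1.62 CPM in Gansu against 236 ± 5.05 in Hubei, log2 fold change -2.76 ± 0.05, edgeR adjusted p = 5.3e-14, and TRINITY_DN23161_c0_g1_i14_4 was lower as well, with a log2 fold change of -3.48 ± 0.14. The main unigene of the former alone had a log2 fold change of -4.17 ± 0.10 (9.67 against 175 CPM). The receptor PYL9 was higher, 167 against 28.1 CPM, log2 fold change 2.57 ± 0.12, or 3.84 ± 0.20 (89.3 against 6.24 CPM) for its main unigene alone. For ethylene, 58 of 131 tested proteins were called higher and 55 lower in Gansu, with a median log2 fold change of 0.15, and a 1-aminocyclopropane-1-carboxylate oxidase (TRINITY_DN16141_c0_g1_i2_1), the last enzyme of ethylene synthesis, was higher, 548 against 85.1 CPM, log2 fold change 2.69 ± 0.05. For jasmonate, 14 of 51 tested proteins were called higher and 27 lower in Gansu, with a median log2 fold change of -0.43. For auxin, 49 of 147 tested proteins were called higher and 56 lower in Gansu, with a median log2 fold change of -0.11 (-0.07 with members at 0 counts in an area at their bound), and the auxin-repressed 12.5 kDa protein was lower, 1751 against 3385 CPM, log2 fold change -0.95 ± 0.04. For gibberellins and cytokinins, 25 of 70 tested proteins were called higher and 33 lower in Gansu, with a median log2 fold change of -0.47. Of 2 proteins matched as the growth repressor DELLA protein GAI1, TRINITY_DN22234_c0_g2_i2_2 was lower, 42.7 against 176 CPM, log2 fold change -2.04 ± 0.07, and TRINITY_DN17354_c0_g1_i1_4 higher, with a log2 fold change of 0.43 ± 0.05.

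Proteins of cell division and histones were more often lower in Gansu, and 79 of 294 tested proteins were called higher and 147 lower in Gansu, with a median log2 fold change of -0.29. A histone H2A (TRINITY_DN21923_c0_g6_i1_4) stood at 85.3 ± 2.71 CPM in Gansu against 348 ± 15.8 in Hubei, log2 fold change -2.03 ± 0.08, edgeR adjusted p = 2.5e-11, while a histone H1 was higher, 308 against 132 CPM, log2 fold change 1.22 ± 0.07. Flowering and bolting regulators were split, and 39 of 100 tested proteins were called higher and 42 lower in Gansu, with a median log2 fold change of 0.03. At unigenes, 39 of 134 unigenes of the list were called higher and 55 lower, with a median of -0.25. Of 2 squamosa promoter-binding-like proteins 14, both were higher, with log2 fold changes of 0.50 ± 0.06 and 1.02 ± 0.08, and FRIGIDA-like protein 4b was lower, with a log2 fold change of -0.42 ± 0.06. In the circadian clock and light receptor list, 20 of 48 tested proteins were called higher and 19 lower in Gansu, with a median log2 fold change of -0.01. The clock component matched as APRR7 was lower, 49.9 against 183 CPM, log2 fold change -1.87 ± 0.07, and adagio protein 3, a blue light receptor of the clock in Arabidopsis, was higher, 129 against 54.9 CPM, log2 fold change 1.23 ± 0.06.

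Proteins for the transport of metals, water and nitrogen were more often lower in Gansu. Among metal, sulfate, potassium and water transport proteins, 38 of 130 tested proteins were called higher and 62 lower in Gansu, with a median log2 fold change of -0.40. Aquaporin TIP1-1 (TRINITY_DN14168_c0_g1_i2_1), a water channel of the vacuole membrane, stood at 504, 545 and 473 CPM in the Gansu libraries and 2981, 2878 and 2662 in the Hubei libraries, log2 fold change -2.49 ± 0.06, edgeR adjusted p = 7e-13. Aquaporin PIP1-4 of the plasma membrane was lower, 313 against 1041 CPM, log2 fold change -1.73 ± 0.05, and PIP1-5 higher, 217 against 145 CPM, log2 fold change 0.59 ± 0.06. Among nitrogen proteins, 27 of 91 tested proteins were called higher and 43 lower in Gansu, with a median log2 fold change of -0.26, with the nitrate transceptor NPF6.3 of the NRT1/PTR family lower, 41.1 against 359 CPM, log2 fold change -3.13 ± 0.08, and glutamate synthase higher, 665 against 378 CPM, log2 fold change 0.82 ± 0.04. Among phosphate proteins, 25 of 46 tested proteins were called higher and 18 lower in Gansu, with a median log2 fold change of 0.34. At unigenes, 28 of 67 unigenes of the list were called higher and 27 lower, with a median of 0.04. The summed level was lower in Gansu, 1154 to 1167 CPM in Gansu and 1327 to 1341 in Hubei. A low affinity inorganic phosphate transporter (TRINITY_DN21999_c0_g2_i5_4) stood at 5.11, 6.19 and 4.19 CPM in the Gansu libraries and 176, 183 and 170.4 in the Hubei libraries, log2 fold change -5.10 ± 0.10, edgeR adjusted p = 6.2e-14, and purple acid phosphatase 15 was higher, 123 against 18.996 CPM, log2 fold change 2.70 ± 0.06.

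Markers of the tissues a root sample can hold moved with the area. For photosynthesis, a list of green tissue, 11 of 76 tested proteins were called higher and 39 lower in Gansu, with a median log2 fold change of -0.66, and the summed level was 893 to 917 CPM in Gansu and 1135 to 1190.5 in Hubei. Its chlorophyll a-b binding protein 50 stood at 146 ± 5.6 CPM in Gansu against 166 ± 5.86 in Hubei, log2 fold change -0.18 ± 0.04, or -1.0 ± 0.07 (49.8 against 99.6 CPM) for its main unigene alone. A member of the same list went the other way by far more. The leaf isozyme of ferredoxin--NADP reductase (TRINITY_DN21600_c0_g1_i15_1) stood at 75.9, 73.5 and 80.7 CPM in the Gansu libraries and 0.0936, 0.278 and 0.136 in the Hubei libraries. For phloem, 3 of 15 tested proteins were called higher and 10 lower in Gansu, with a median log2 fold change of -1.32, while the summed level went the other way, 305 to 325 CPM in Gansu and 205 to 212 in Hubei, with 1 phloem protein 2-like A1 protein (TRINITY_DN21634_c0_g1_i2_4) higher, 231 against 94.4 CPM, log2 fold change 1.29 ± 0.05. For suberin, wax and cork, 26 of 114 tested proteins were called higher and 58 lower in Gansu, with a median log2 fold change of -0.77, and the summed level was 1617 to 1642 CPM in Gansu and 1980.3 to 2006 in Hubei. Seed storage transcripts, at the summed levels given above, moved with the area as well. The part of tissue make-up in the other differences was not tested.

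Transcription factor families ranged from mostly lower to mostly higher. Of 73 tested bHLH proteins, 15 were called higher and 44 lower, with a median log2 fold change of -0.66. Of 53 MYB proteins, 12 were higher and 26 lower (median -0.71), and of 35 GRAS proteins 12 and 21 (median -0.72). Of 60 C3H zinc finger proteins, 31 were higher and 12 lower (median 0.33), and of 35 HD-ZIP proteins 20 and 11 (median 0.50). Of 58 WRKY proteins, a family known for defense, 21 were higher and 31 lower (median -0.39). Among transposable element proteins, 63 of 139 tested proteins were called higher and 33 lower in Gansu, with a median log2 fold change of 0.58 (0.56 with members at 0 counts in an area at their bound). Transposon Tf2-8 polyprotein was higher, 379 against 144 CPM, log2 fold change 1.40 ± 0.05, and a putative AC transposase (TRINITY_DN22039_c1_g4_i2_1) lower, 1.01 against 114 CPM, log2 fold change -6.83 ± 0.24.

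Some unigenes had their best match in Rhizopus, a genus of fungi, and were examined after the values were seen. These 522 unigenes had a summed level, relative to the raw library total, of 1810, 1725 and 2687 CPM in the Gansu libraries and 1082, 1033 and 1047 in the Hubei libraries, without overlap. Of the 315 tested proteins matched to Rhizopus, 185 were called higher and 0 lower by edgeR, with a median log2 fold change of 1.07 and quartiles of 0.93 and 1.30. Chongqing libraries had 1155, 1579 and 1736 CPM and Shanxi libraries 2579, 2722 and 4123. The lists above still count proteins matched to Rhizopus or to Mucor, another genus of fungi. These were 4 of 116 for heat shock, 4 of 294 for cell division, and 2 each for antioxidant, pathogenesis-related and nitrogen proteins. The part of the fungal matches in the defense and other list differences was not tested.

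The unit of counting mattered for single unigenes. Of 21856 called unigenes with an NR id, 85.3% had a summed protein called in the same direction, 5.6% one called in the other direction and 9.1% one not called. Of 6981 proteins with at least 2 tested unigenes, 322 (4.61%) had unigenes called in opposite directions by 4-fold or more each, and 80 of these were not called after summing. An example is the protein matched as 60 kDa jasmonate-induced protein, which stood at 240.5 ± 18.7 CPM in Gansu against 251 ± 8.84 in Hubei after summing, with a log2 fold change of -0.06 ± 0.06, with an edgeR adjusted p of 0.33. Its unigene TRINITY_DN8145_c0_g1_i2_2 was at 0.488 ± 0.103 CPM in Gansu against 17.7 ± 1.07 in Hubei, and its unigene TRINITY_DN17_c0_g1_i2_4 at 7.88 ± 1.39 and 0.963 ± 0.625. Both unigenes made up only a small part of the summed level. The sum was called lower with limma on FPKM, without Gansu replicate 2 and with the TMM factors of the unigene table. Its log2 fold changes there were -0.28 to -0.13. Of 237 named proteins that were called and had a tested main unigene, 24 had a main unigene whose log2 fold change departed from that of the sum by more than 1.5 times, beyond the shift between both scales. The main unigene of 3 was not called, namely that of the second SWEET7, of SUC4 and of SWEET5. The log2 fold change of the main unigene was 8.52 ± 0.18 for the first vicilin-like protein, 8.69 ± 0.15 for chalcone synthase 2, 2.92 ± 0.10 for the psoralen synthase that was higher in Gansu and -8.91 ± 0.24 for BURP domain-containing protein 5.

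The direction of calls also went with the final digit of the unigene identifier, whose meaning is not given in the sources used here. Of unigenes ending in 1, 31.5% were called higher and 15.7% lower in Gansu, and of those ending in 4, 30.8% and 16.9%. Of unigenes ending in 2, 10.5% were called higher and 47.8% lower, and of those ending in 3, 21.2% and 28.5%. These stand beside 24.0% and 26.5% over all unigenes.

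**Figure D5:**
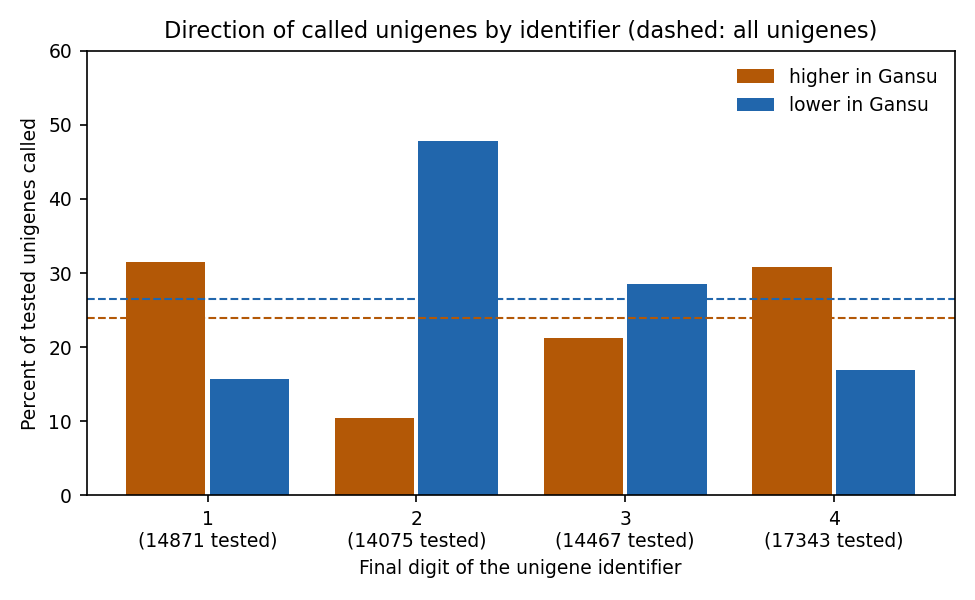
Percent of tested unigenes called higher (orange) or lower (blue) in Gansu roots than in Hubei roots, by the final digit of the unigene identifier, with the number tested below each pair of bars. Dashed lines mark the shares over all unigenes, 24.0% and 26.5%; the digit 2 has 47.8% lower against 10.5% higher.

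Unigenes detected in only 1 of these 2 areas leaned the same way as the calls for the digits 1, 2 and 4, but not for 3. With 10 or more counts in each library of an area and 0 in every library of the other, 1287 unigenes were detected in Gansu and not Hubei and 1296 in Hubei and not Gansu. They made up 3.19% of the 40337 unigenes detected in Gansu and 3.18% of the 40747 detected in Hubei. Of the unigenes detected in Gansu and not Hubei, 374 ended in 1, 35 in 2, 302 in 3 and 576 in 4. Of those detected in Hubei and not Gansu, these numbers were 131, 804, 265 and 96. After summing over the NR id, 227 proteins (1.08% of those detected in Gansu) were detected in Gansu and not Hubei, and 276 (1.27% of those detected in Hubei) in Hubei and not Gansu. Most of them had counts in the other areas sequenced: 63 of the 227 and 46 of the 276 had 0 counts in Chongqing and Shanxi. Cytokinin dehydrogenase 5, which breaks down cytokinins, had 495, 519 and 583 counts in the Hubei libraries and 0 in the Gansu libraries, with 2190 counts in the 6 libraries of Chongqing and Shanxi. A gibberellin-regulated protein 1 had 1016, 947 and 1051 counts in the Gansu libraries and 0 in the Hubei libraries, with 2132 in those 6. Both proteins were picked after their values were seen, and a count of 0 in 3 libraries is a statement at this depth, where 3 counts is the floor.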

How the data were processed

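RNA of roots was sequenced in 12 libraries, of which 3 of Gansu and 3 of Hubei are compared, grouped by sample title. The authors deposited estimated counts per unigene, which need not be whole and are unscaled as the deposited values show, and FPKM values, scaled by length and library total. The submitters' processing notes name RSEM, Bowtie2, featureCounts, Trimmomatic, FastQC and DESeq2; what each did and how similar unigenes shared reads is not given in the sources used here, which makes single unigenes uncertain. Estimated counts were rounded, and tested with edgeR 4.0.16 (R 4.3.3; TMM, filterByExpr, glmQLFit, glmQLFTest, all 12 libraries in 1 fit with 8 residual degrees of freedom), per unigene and summed over the NR id, which leaves out 27876 unigenes without one. SE was taken as the size of the log2 fold change over the root of the F value. The tests were also run on simulated data in which few features changed, evenly in both directions. Many more were called here, so that run does not show how the tests behave in this comparison. Members belong to a list by words in their description.

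The areas, lists and rules were chosen with earlier results of these data known, and the words for 3 hormone lists were corrected after their members were seen. Named were the 8 proteins with the highest and the 8 with the lowest fold change, and the 2 of highest CPM per list and direction. All of these had to be called, described and without overlap between the areas. They also needed more than 3 counts in each area and a main unigene called in the same direction. The minimum mean level was 3 in log2 CPM for the 8 and 8, and 1 CPM for list members. Proteins picked by level among those that differed by 8-fold or more met the same conditions. Named whether or not they overlapped were all phenylpropanoid entry, coumarin and sugar transport proteins of 10 CPM or more, and 3 proteins with opposed unigenes. The text gives those that lead. Of the 8 and 8, those under 1 CPM in an area are left out, except oleosin 16 kDa, given as counts, and the leaf isozyme of ferredoxin--NADP reductase. Alternatives were DESeq2 1.42.0, RLE factors, other filters, a 2-fold minimum, limma 3.58.1 on log2(FPKM + 1) and log2(FPKM + 0.1), 6 libraries only, a replicate block and each library left out. A floor of 3 counts covers counting error only.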

Additional observations from a re-analysis of the deposited data

How the results depend on the processing

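No named protein or unigene reversed in direction under any setting tried where it was called in the main fit or under that setting. Signs of features called in neither were not compared. Apart from the 2-fold minimum, 4 named proteins and 6 named unigenes lost their call under at least 1 setting. With DESeq2, RLE factors, other filters, limma on FPKM or only the 6 libraries, the calls stayed within 1.5 times the 30698 unigenes and 17313 summed proteins. Leaving out 1 library gave 28430 to 30040 unigenes and 16459 to 16860 summed proteins. A minimum of 2-fold left 8757 summed proteins. Counts summed over the Swiss-Prot id, added after seeing the data, gave 8441 calls among fewer proteins tested. That was 72.5% of the proteins tested, against 69.8% over the NR id. With the TMM factors of the unigene table, also added later, 41.8% rather than 49.1% of the called summed proteins were higher in Gansu. The replicate block gave 29449 unigenes and 17127 summed proteins. Over unigenes, deviations of same-numbered libraries from their area means correlated at -0.11, -0.01 and 0.32. Differently numbered libraries reached values as large, 0.39 for Gansu replicate 2 with Hubei replicate 1 and -0.39 for Gansu replicate 2 with Hubei replicate 3. The deviations of an area depend on one another, so these few values cannot decide whether the numbers pair the libraries. Whether the areas share an unlabelled source of variation was not tested.

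After summing, mean Spearman correlations moved from 0.947 to 0.991 within Gansu, from 0.956 to 0.993 within Hubei and from 0.719 to 0.842 between them. At a minimum of 30 counts, 570 unigenes (1.96% of those detected) and 103 summed proteins (0.557%) were detected in Gansu only. In Hubei only, 534 (1.77%) and 120 (0.617%) were detected. Leaving out 1 library gave 1352 to 1575 and 230 to 275 for Gansu, and 1426 to 1637 and 299 to 352 for Hubei. Proteins with opposed unigenes numbered 745 at 2-fold, 191 at 8-fold, 186 with 50 counts in 3 libraries and 78 with limma on log2(FPKM + 1), where fewer unigenes pass or low values are damped, and 314 to 347 with 1 library left out. Of 1146 list counts recomputed without the 2-fold minimum, 2 moved by over 1.5 times. Depth limits the detection of transcripts in 1 area only, and the origin of the replicates limits what the p-values cover.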
